A study of Mus musculus with 4 samples.

Results

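Kinesin and dynein motor genes were followed in 4 RNA-sequencing libraries of embryonic mouse brain, 2 from macroH2A knockout embryos (KO2 and KO4) and 2 from wild-type embryos (WT6 and WT8). Members were taken by name: protein-coding genes in both deposited tables whose symbol starts with Kif and a digit, Kifc, Kifap, Klc1 to Klc4, Dync, Dynl or Dctn. This gave 67 genes of the 19150 in both tables. They are 39 kinesins (13 mitotic, 15 of transport and 11 others), 6 kinesin accessory genes, 5 subunits of dynein-1, 2 of dynein-2, 9 dynein light chains and 6 dynactin subunits. All brains were at stage E13.5, from the C57BL/6 strain, and differ in the labels by genotype alone. MacroH2A is a histone H2A variant with an added large domain. Which of its genes was deleted, how, and whether a library holds 1 brain are not in the labels. The p-values below therefore measure the spread between these libraries, which may be technical in part.

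Kinesins and dyneins are motors that use ATP to walk along microtubules. Most kinesins walk toward the plus end, which points to the tip of an axon, and cytoplasmic dynein walks toward the minus end, with dynactin as the complex that couples it to cargo. At this stage the brain holds dividing progenitors, in which mitotic kinesins build the spindle and help the daughter cells separate, beside young neurons, in which transport kinesins carry vesicles, organelles and RNA.

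The total read count was between 16470090 and 18136745 per library. H2afy, which encodes macroH2A1, had 1368 reads (KO2), 1267 (KO4), 5538 (WT6) and 5593 (WT8), so the genotypes did not overlap. Its log2 fold change of KO over WT was -2.22 (SE 0.10, edgeR quasi-likelihood adjusted p = 0.00167), and that of the second macroH2A gene, H2afy2, was 0.08 (SE 0.09, adjusted p = 0.799). Markers matched the labelled tissue: the summed level of 9 neuronal markers was 5585 to 6168 CPM per library, that of 8 radial glia markers 2033 to 2341 and that of 6 forebrain markers 1477 to 1669. The libraries were not even in all markers. The sum of 8 erythroid markers was 579 (KO2), 579 (KO4), 444 (WT6) and 999 CPM (WT8). The ventral forebrain gene Dlx1 was low in WT6, with 408, 381, 270 and 424 CPM in that order, and the dorsal gene Emx1 was lower in both KO libraries, with 146, 137, 194 and 197 CPM (log2 fold change -0.47, SE 0.08, edgeR adjusted p = 0.743). Both genes are named here after their values were seen, and their part in the results below was not tested. CPM is a gene's read count relative to the size of its library, here scaled by a normalization factor for each library. In bulk tissue, fewer cells of a type and less RNA per cell cannot be told apart.

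Motor genes together held 7573 CPM (KO2), 7757 (KO4), 7921 (WT6) and 7832 (WT8), and their levels spanned a wide range. To compare genes, each CPM was divided by the length of the gene's exons in kilobases. On this scale the median over the 66 tested members was 12.3 CPM per kb, against 4.85 over all 15708 genes tested, and 36 members reached 10. The light chain gene Dynlrb1 had the highest level, 309 ± 29.8 CPM per kb (mean ± SD, n = 4 libraries), followed by Dynll1 at 136 ± 12.5, Dctn3 at 125 ± 12.7, Dynll2 at 121 ± 3.25 and Klc1 at 117 ± 3.01. Divided by the longest coding transcript in place of all exons, the order was Dynlrb1 (396), Dynll1 (260), Klc1 (191), Dctn2 (185), Dctn3 (134) and Dynll2 (133), so ranks below Dynll1 depend on the length used. Among motor subunits proper, the kinesins Kif21b (53.6 ± 5.02) and Kif5c (52.0 ± 1.22) were highest per kb of exon. These levels did not differ beyond their spread, but divided by the longest coding transcript they were 71.6 for Kif21b and 54.2 for Kif5c. At the low end stood Kif27 (0.281 ± 0.0295), Kif9 (0.305 ± 0.0449) and Kif6 (0.331 ± 0.0867), kinesins tied to cilia and flagella. Dynlrb2, a light chain gene, was the 1 member with too few reads to test, with 4 reads (KO2), 0 (KO4), 1 (WT6) and 8 (WT8).

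**Figure D1:**
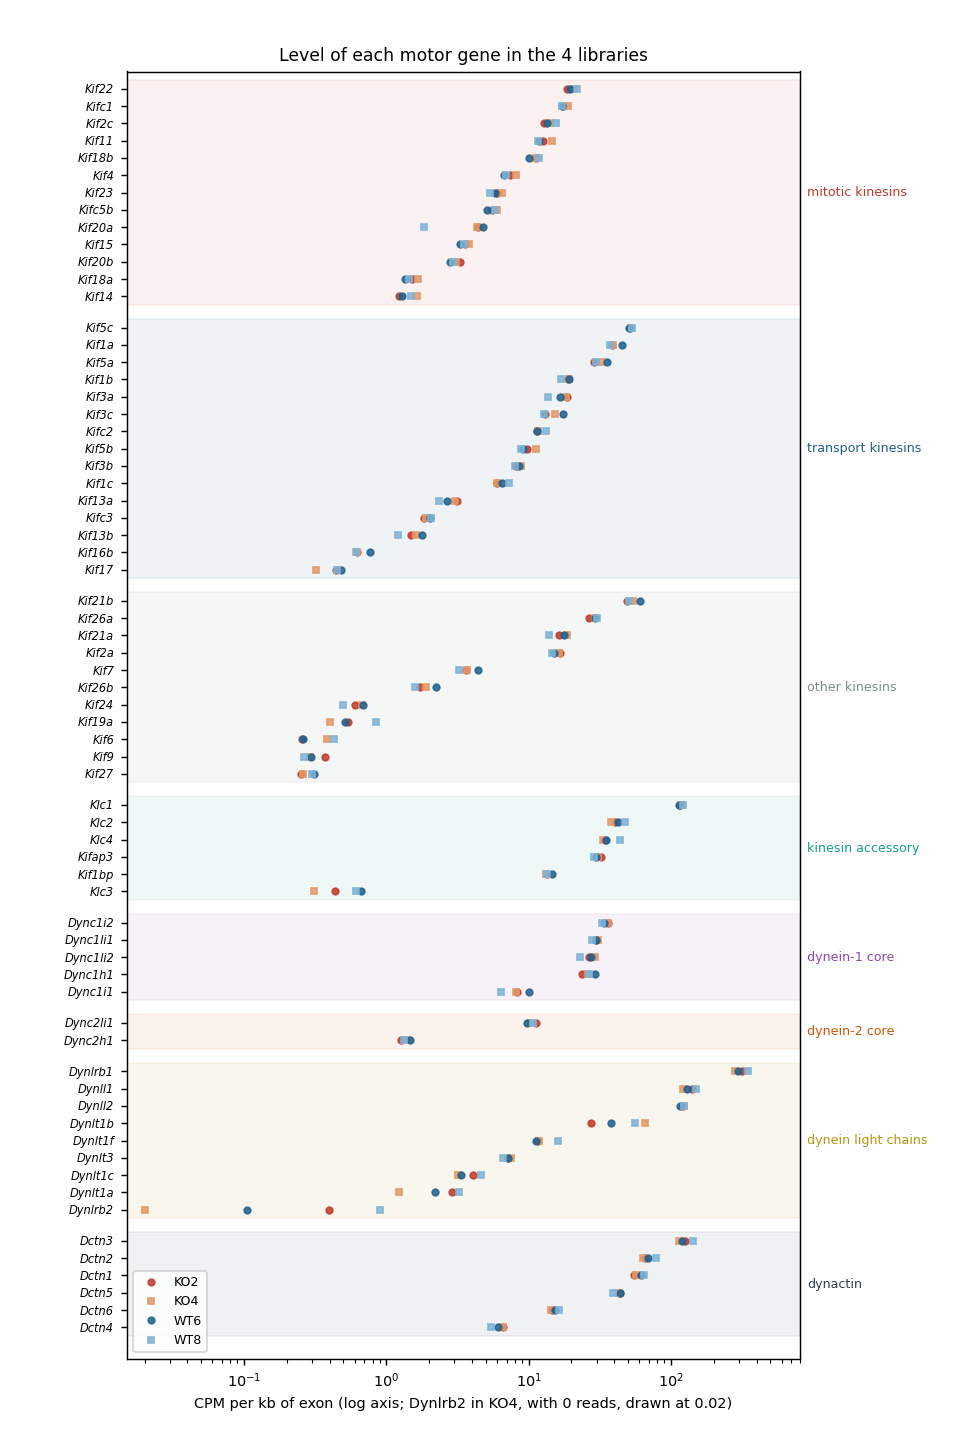
Level of each of the 67 motor genes in CPM per kb of exon (log axis), 1 point per library, grouped by role. The 4 libraries of most genes lie close together, and the exceptions are Kif20a in WT8, Dynlt1a, Dynlt1b and genes with few reads such as Klc3 and Dynlrb2, whose 0 in KO4 is drawn at 0.02.

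No motor gene passed the test between genotypes. In the edgeR fit over 15708 genes, 0 members were called higher in KO (0% of all genes tested were) and 0 lower (0.00637% were). The smallest adjusted p of any member was 0.743. At an unadjusted p under 0.05 there were 2 of 66 members (4.7% of all genes), Kif3a and Kif13a, both higher (2.44% of all genes), and 0 were lower (2.26% of all genes). DESeq2 called 0 members, where it called 0.0209% of all genes. Members were spread on both sides of 0, with 31 of 66 above it (47.0%, against 48.9% of all genes) and a median log2 fold change of -0.01 (-0.007 over all genes). For 16 members each KO library exceeded each WT library (20.1% of all genes did so) and for 12 each was below both (19.4% of all genes), so the share of members without overlap was near the background.

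The precision of these folds is known from their intervals. The 95% interval reached a median of 0.273 to either side on the log2 scale, it lay within ±1 for 58 of the 66 members and within ±0.5 for 48. Changes of ±0.5 or more were therefore outside the interval of most motor genes, and changes smaller than the interval of a gene could not be seen. The fold itself was within ±0.5 for 64 members, and the exceptions were Klc3 and Kif19a, both with few reads.

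**Figure D2:**
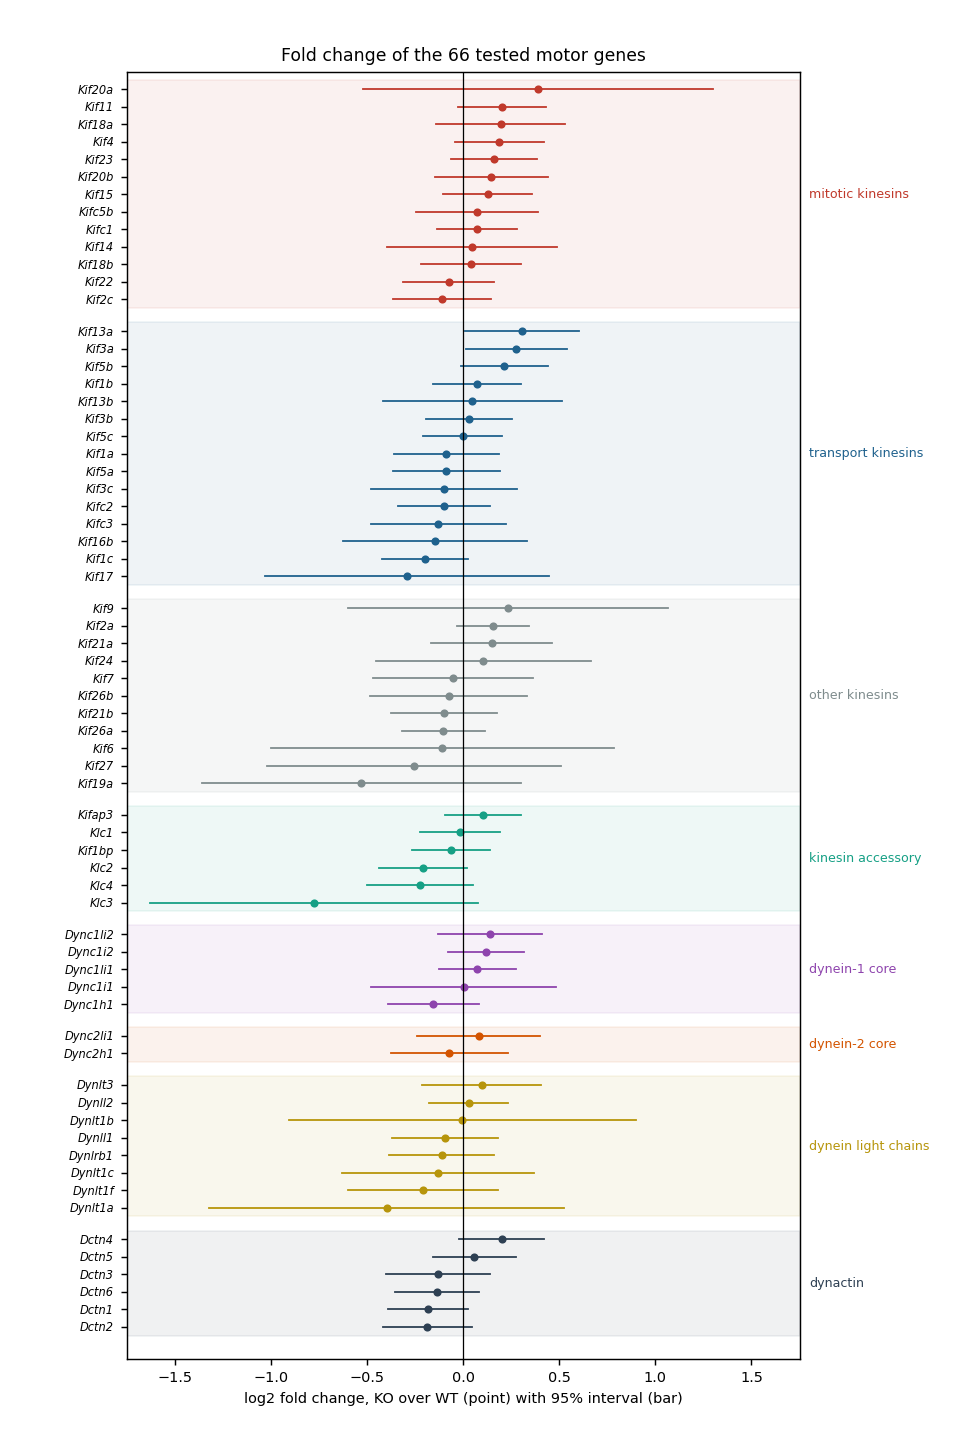
Log2 fold change of KO over WT (points) with its 95% interval (bars) for the 66 tested motor genes, ordered within each role. Points of mitotic kinesins lie mostly right of 0, points of accessory and dynactin genes mostly left of it, and the widest bars belong to Dynlt1a, Kif20a, Dynlt1b, Kif6 and Klc3.

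Mitotic kinesins lay mostly on the higher side in KO without any passing the test. Of 13 genes, 11 had a log2 fold change above 0, the median was 0.13 (-0.007 over all genes), and the KO libraries were above the WT libraries without overlap for 7 (20.1% of all genes) and below them for 0 (19.4% of all genes). Most abundant per length were Kif22, a chromokinesin that pushes chromosome arms outward (20.3 ± 1.45 CPM per kb), the minus-end motor Kifc1, which bundles spindle microtubules (17.7 ± 0.815), and Kif2c, which takes microtubules apart at the centromere (13.9 ± 1.23). The lowest level of the class was that of Kif14, which acts in cytokinesis (1.41 ± 0.192).

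Kif11 (ENSMUSG00000012443, chromosome 19, 37376403 to 37421859 on GRCm38), the plus-end motor that drives the spindle poles apart, had 93.8 CPM (KO2), 108 (KO4), 88.2 (WT6) and 87.2 (WT8). KO4 stood out as the high library, and KO2 was nearer to the WT pair than to KO4. The log2 fold change was 0.20 (SE 0.10, edgeR adjusted p = 0.743). Kif4, a chromokinesin that also works in the spindle midzone, had 41.0 and 44.9 CPM in KO2 and KO4 against 37.1 and 38.3 in WT6 and WT8, a log2 fold change of 0.19. Kif23, a subunit of centralspindlin, had 47.4 and 51.1 CPM in KO against 45.7 and 42.5 in WT, a log2 fold change of 0.16. In Kif4 and Kif23, as in Kif11, the genotypes did not overlap, and the gap between genotypes was smaller than the distance between the KO libraries. Kif18a (0.20), Kif20b (0.15) and Kif15 (0.13) were further genes of the class, on the log2 scale, with both KO libraries on the higher side.

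The 3 most abundant mitotic kinesins showed small or opposite differences. Kif22 had 91.6 CPM (KO2), 102 (KO4), 95.9 (WT6) and 108 (WT8), with a log2 fold change of -0.07 (edgeR, SE 0.10, adjusted p = 0.838). Kif2c had 55.7, 61.3, 58.3 and 68.1 CPM in the same order, a log2 fold change of -0.11 (SE 0.11, adjusted p = 0.782). Both genes overlapped between genotypes and were highest in WT8. Kifc1 had 59.2, 64.5, 58.8 and 58.8 CPM, a log2 fold change of 0.07 (SE 0.09, adjusted p = 0.822), with KO4 alone apart. Its copy Kifc5b matched it in 98.4% of 2019 aligned coding bases, and 52.7% of 50-base stretches of the Kifc1 coding sequence occur in Kifc5b too, so reads of this pair may have been split or dropped by the counting.

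Kif20a, which brings the chromosomal passenger complex to the midzone, had the largest fold of the class and the least certain one. It had 348 reads (KO2), 347 (KO4), 359 (WT6) and 127 (WT8), so that WT8 alone was low and the other 3 libraries were nearly equal. The log2 fold change was 0.39 with a 95% interval from -0.52 to 1.30 (SE 0.38, edgeR adjusted p = 0.784). Its log2 ratio of KO over WT was -0.14 within the first deposited pair (KO2, WT6) and 1.24 within the second (KO4, WT8). Exons of Kif20a share 1271 bases, 29.3% of their length, with the anaphase-promoting complex gene Cdc23 on the opposite strand, and Cdc23 had 1407, 1589, 1365 and 821 reads in KO2, KO4, WT6 and WT8. WT8 was thus the low library for both genes. The sources used here do not say whether the counting used strand, so reads of the shared stretch cannot be told apart. Cdc23 was looked at after the values of Kif20a had been seen.

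Promoter sequences were examined for the mitotic class because 11 of its 13 members lay above 0, though none passed and Kif22 and Kif2c lay below it. The search was added after their values had been seen. RefSeq promoters on GRCm38.p6, each running from 250 bases before to 50 bases after a gene's start, were matched by symbol for 50 of the 67 members, in 57 promoters, and for 12 of the 13 mitotic kinesins. Genes of the late cell cycle are known for the cell cycle genes homology region (CHR), here the letters TTTGAA, and for CCAAT boxes. Both strands were searched, so that TTTGAA may read TTCAAA and CCAAT may read ATTGG, and no match of the first overlapped one of the second. TTTGAA was in 11 of 12 mitotic promoters (91.7%), 1 of 12 transport promoters (8.33%, from 10 genes) and 17.9% of all 32851 promoters. CCAAT was in 66.7% of mitotic, 33.3% of transport and 37.4% of all promoters. Both were in 8 of 12 mitotic promoters (66.7%), 0 of 12 transport promoters and 6.95% of all. TATAAA, also searched for, was found in 8.33% of mitotic, 8.33% of transport and 13.6% of all promoters. These matches describe letters, not bound sites.

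The shares were also counted near the start. In the 110 bases from 80 before the start through the first 30 transcribed bases, a window also chosen after the matches had been seen, TTTGAA was in 66.7% of mitotic promoters, 8.33% of transport promoters and 5.66% of all, and both motifs were in 6 of 12 mitotic promoters (50%), 0 of 12 transport promoters and 1.11% of all. The 6 windows with both motifs are shown 5′ to 3′ on the gene's strand, followed by 2 with TTTGAA alone and, for contrast, the window of the most abundant transport kinesin, Kif5c, with neither. Capitals mark TTTGAA and CCAAT on either strand.
Kif11, chr19:37376302-37376411, plus strand: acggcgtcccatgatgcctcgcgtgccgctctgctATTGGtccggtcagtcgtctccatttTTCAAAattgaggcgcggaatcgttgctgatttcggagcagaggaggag
Kif22, chr7:127042391-127042500, minus strand: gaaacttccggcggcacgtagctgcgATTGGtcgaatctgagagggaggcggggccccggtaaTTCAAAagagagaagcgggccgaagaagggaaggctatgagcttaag
Kif18b, chr11:102925095-102925204, minus strand: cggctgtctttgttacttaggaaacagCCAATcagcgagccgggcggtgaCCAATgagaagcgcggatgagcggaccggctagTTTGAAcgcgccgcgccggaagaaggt
Kif23, chr9:61946770-61946879, minus strand: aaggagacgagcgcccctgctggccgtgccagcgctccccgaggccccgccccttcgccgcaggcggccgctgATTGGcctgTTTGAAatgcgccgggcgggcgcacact
Kif4, chrX:100625985-100626094, plus strand: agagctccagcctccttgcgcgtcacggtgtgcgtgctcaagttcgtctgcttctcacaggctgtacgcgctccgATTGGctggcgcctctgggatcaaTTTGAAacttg
Kifc1, chr17:33890604-33890713, minus strand: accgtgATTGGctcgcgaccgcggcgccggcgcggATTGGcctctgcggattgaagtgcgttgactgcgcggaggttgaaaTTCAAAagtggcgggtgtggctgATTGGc
Kif15, chr9:122951001-122951110, plus strand: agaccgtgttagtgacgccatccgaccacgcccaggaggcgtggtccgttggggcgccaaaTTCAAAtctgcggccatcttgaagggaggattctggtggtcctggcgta
Kif20b, chr19:34922278-34922387, plus strand: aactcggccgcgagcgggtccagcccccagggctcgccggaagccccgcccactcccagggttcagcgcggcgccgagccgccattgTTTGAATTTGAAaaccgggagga
Kif5c, chr2:49619206-49619315, plus strand: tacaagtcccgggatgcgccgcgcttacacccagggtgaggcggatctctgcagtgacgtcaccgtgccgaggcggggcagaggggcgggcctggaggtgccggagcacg
In Kif11, Kif15 and Kif22 the TTTGAA match begins 19, 19 and 17 bases before the start, and in Kif18b, Kif20b, Kif23, Kif4 and Kifc1 it lies within the transcribed bases shown. A CCAAT match precedes it in each of the 6 windows with both. RefSeq places the starts of Kif2c, Kif14 and Kif4 inside the gene as the deposited tables draw it, by 3867, 1505 and 328 bases, so their windows may not be the promoters in use. The transport promoter with TTTGAA belongs to a start of Kif1a that lies 19471 bases inside that gene. Of the 6 genes with both motifs near the start, Kif11 (log2 fold change 0.20), Kif4 (0.19) and Kif23 (0.16) were on the higher side. Kifc1 (0.07) and Kif18b (0.04) were nearer to 0, and Kif22 (-0.07) was below it. Kif18a, with neither motif in its promoter, stood at 0.20. A link between these motifs and the folds was not tested.

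Other genes of the spindle and of the cell cycle were read from lists, which were chosen with earlier results of these data known. Of 22 spindle partners 0 passed in either direction, 15 were above 0, 7 were below it and the median log2 fold change was 0.09. The lowest folds were those of Plk1 (-0.19) and Cdk1 (-0.11). Prc1, which bundles the midzone microtubules that Kif4 and Kif23 work on, had the smallest p, with 38.0 and 43.1 CPM in KO2 and KO4 against 32.7 and 24.4 in WT6 and WT8 (log2 fold change 0.51, SE 0.16, edgeR adjusted p = 0.743). Next in order of p were the microtubule polymerase gene Ckap5 at 0.21 and the checkpoint kinase gene Bub1 at 0.23. In 17 of the 22 the lowest value came from WT6 (20.7% of all genes tested). Of 8 markers of cycling cells 6 were above 0, with a median of 0.13, the same size as that of the mitotic kinesins. Their summed level was 1375 CPM (KO2), 1470 (KO4), 1327 (WT6) and 1418 (WT8), and none of the 8 was at 0 in any library. None of the 8 passed, Cdc20 (-0.22) and Ube2c (-0.15) lay below 0, and in the sum WT8 lay between the KO libraries. The part of the number of cycling cells in the kinesin values was not tested.

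Transport kinesins, which include motors of axons, lay on both sides of 0. Of 15 genes 6 were above 0, the median log2 fold change was -0.09, and the KO libraries were above the WT libraries without overlap for 3 (20.1% of all genes) and below them for 3 (19.4%), shares near the background. Per length, Kif5c (52.0 ± 1.22 CPM per kb) and Kif5a (31.7 ± 2.99), the kinesin-1 heavy chains known from neurons, stood above the broadly expressed Kif5b (9.75 ± 1.03) in every library, and the ratio of Kif5c to Kif5b was between 4.69 and 6.00. Kif1a, the carrier of synaptic vesicle precursors, came second at 40.0 ± 3.63, and its ratio to Kif1b (18.5 ± 1.07) was 2.04 to 2.37. Divided by the longest coding transcript in place of all exons, the mean ratio of Kif1a to Kif1b was 1.43. Of the heterotrimeric kinesin-2 subunits, Kif3a (16.9 ± 2.22) was above Kif3c (14.7 ± 2.24), within their spread, and above Kif3b (8.42 ± 0.378), by 1.71 to 2.28 times in each library.

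Kif5c was the steadiest of the abundant transport motors. The gene (ENSMUSG00000026764, chromosome 2, 49619298 to 49774778) had 367 CPM (KO2), 375 (KO4), 362 (WT6) and 381 (WT8), with a log2 fold change of -0.0020 and a 95% interval from -0.21 to 0.20 (edgeR adjusted p = 0.995). The genotypes overlapped fully. Kif5a had 201, 229, 248 and 209 CPM in the same order and Kif1a had 357, 367, 422 and 346, so WT6 was the highest library for both. Their log2 fold changes were both -0.09 (SE 0.12 for Kif5a and 0.11 for Kif1a).

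The motor genes with the smallest p were 2 transport kinesins on the higher side. Kif3a (ENSMUSG00000018395, chromosome 11, 53567379 to 53601967), a subunit of kinesin-2, the anterograde motor of cilia and a carrier in axons, had 66.6 CPM (KO2), 65.9 (KO4), 59.8 (WT6) and 49.4 (WT8). The KO libraries were nearly equal and WT8 was the low one. The log2 fold change was 0.28 (SE 0.11, edgeR adjusted p = 0.743). Kif13a (ENSMUSG00000021375, chromosome 13, 46749087 to 46929867), a carrier of endosomal cargo, had 25.5, 24.6, 21.5 and 19.1 CPM in the same order, again with WT8 lowest and no overlap, and a log2 fold change of 0.30 (SE 0.12, adjusted p = 0.743). Kif5b followed with 77.9, 89.4, 73.0 and 71.1 CPM and 0.22 (SE 0.10, adjusted p = 0.743). Without WT8, 67 genes were called higher in edgeR (0.41% of those tested then) and 0 of them was a motor gene.

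On the lower side of the class Kif1c, a fast vesicle carrier, had 43.3 CPM (KO2), 43.9 (KO4), 47.4 (WT6) and 52.7 (WT8) (log2 fold change -0.20, SE 0.09, edgeR adjusted p = 0.743). The KO libraries were close to each other and below both WT libraries. Kif17, a dendritic carrier, with 37, 27, 38 and 33 reads, and Kifc3, a minus-end motor, with 180, 184, 185 and 175 reads, also had both KO libraries below both WT libraries once scaled, with log2 fold changes of -0.29 and -0.13. Kif3c, the alternative partner of Kif3a, also varied within genotypes, with 96.0 and 114 CPM in KO2 and KO4 and 130 and 94.6 in WT6 and WT8, and its pair ratios had opposite signs (on the log2 scale -0.43 in the KO2 and WT6 table, 0.26 in the other). Its exons share 2617 bases (35.3%) with the antisense gene 1110002L01Rik.

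Of 23 genes for kinesin adaptors and cargo links 0 passed, 9 were above 0 and the median log2 fold change was -0.08. Mapk8ip2 and Mapk8ip1, scaffolds that join kinesin-1 to cargo, had the smallest p and were lower in both KO libraries. Mapk8ip2 had 210, 209, 241 and 250 CPM in KO2, KO4, WT6 and WT8 (log2 fold change -0.23, SE 0.08, edgeR adjusted p = 0.743), and Mapk8ip1 had 226, 215, 254 and 266 (-0.24, SE 0.09, adjusted p = 0.743). Map7d2, a microtubule-associated protein that brings kinesin-1 to axons, was on the other side at 0.41 (SE 0.16). Of 9 neuronal markers 5 were above 0, with a median of 0.06, and their summed level was 5914 CPM (KO2), 5619 (KO4), 5585 (WT6) and 6168 (WT8). None of the 9 was at 0 in any library.

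Set side by side, mitotic and transport kinesins differed in their medians by 0.21 on the log2 scale, and the libraries did not carry this difference evenly. For each gene, the log2 CPM in a library was taken relative to the gene's mean over the 4 libraries. The median over mitotic kinesins was then 0.017 (KO2), 0.11 (KO4), -0.10 (WT6) and -0.035 (WT8). Over transport kinesins it was -0.045 (KO2), 0.05 (KO4), 0.05 (WT6) and -0.086 (WT8). KO4 was the highest library for 8 of 13 mitotic genes (4051 of 15708 over all genes) and WT6 the lowest for 7 (20.7% of all genes). In the transport class WT6 was the highest for 7 of 15 genes (3617 of 15708 over all genes). WT8 was the lowest for 9 of them, where it was the lowest for 34% of all genes tested. WT6 thus lay on opposite sides in the 2 classes. Without WT6 the difference of the medians was 0.024, and without each of the other libraries it was between 0.16 and 0.28. The transport median changed sign without WT6 (0.062) and without KO2 (0.021). The mitotic median remained above 0 without each library, from 0.079 without KO4 to 0.18 without KO2.

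**Figure D3:**
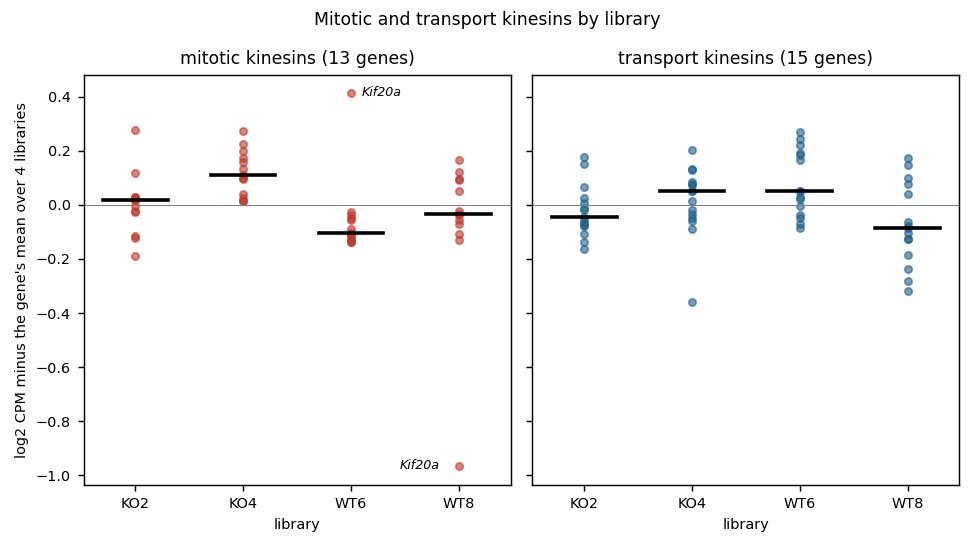
Log2 CPM of each gene relative to its mean over the 4 libraries (points) for mitotic and transport kinesins, with the class median as a bar. The mitotic median is highest in KO4 and lowest in WT6, while the transport median is above 0 in WT6 and below it in WT8, and Kif20a is the point set apart in WT6 and WT8.

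The ratios within each deposited table come from the same 4 libraries. Of the transport kinesins, 11 of 15 had a ratio below 0 for KO2 over WT6 (median -0.12, log2) and 10 of 15 had one above 0 for KO4 over WT8 (median 0.13). Of the mitotic kinesins, 9 of 13 were above 0 in the first pair (median 0.09) and 10 of 13 in the second (median 0.13). Over all 66 members, 31 had opposite signs in the pairs. Of these, 19 were below 0 in the first pair and above 0 in the second (28.8% of members, against 25.3% of all genes). In the transport class 7 of 15 were of this kind.  Pearson's r between the pair ratios was -0.14 across genes, which share their libraries and are not replicates (-0.17 over all genes tested).

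**Figure D4:**
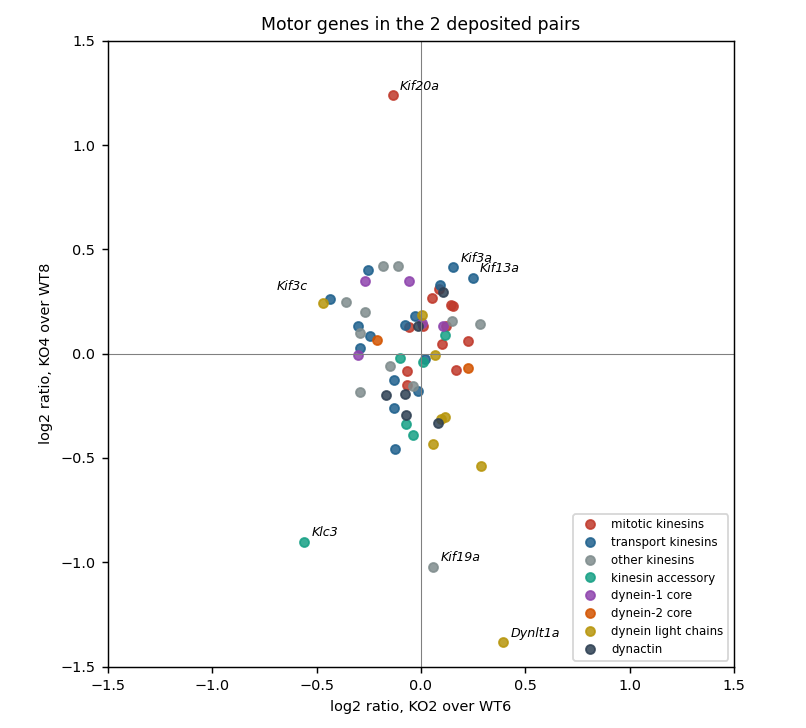
Log2 ratio of KO4 over WT8 against that of KO2 over WT6 for the 66 tested motor genes, coloured by role. Of the mitotic kinesins 8 of 13 lie in the upper right, and of the transport kinesins 7 of 15 lie in the upper left. Kif20a and Kif19a stand far from 0 in the second pair alone. Dynlt1a has opposite signs in the pairs, 0.39 in the first and -1.38 in the second.

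The authors' deposited tables test each pair of libraries on its own. For KO2 over WT6 they mark 0 of the 67 members as significant (1.86% of all genes listed). For KO4 over WT8 they mark 4 of the 67, a share near the background (5.05% of all genes listed). In the authors' deposited table these 4 are Kif20a with a log2 fold change of 1.32, Dynlt1a with -1.34, Kif19a with -1.01 and Dynlrb2 with -4.13. All 4 have log2 fold changes beyond ±1, and members with smaller folds are unmarked even where the authors' adjusted p is small. Examples are Kif21b (-0.28 for KO2 over WT6) and Dynll1 (-0.24 for KO4 over WT8). The mark therefore does not count members with a small p. A test on 2 libraries compares those libraries and not the genotypes. Of the 4 marked members, Kif20a, Dynlt1a and Kif19a had overlapping genotypes over the 4 libraries. Dynlrb2 rests on the 0 and 8 reads given above.

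Kinesins outside these classes included Kif21b, which limits microtubule growth and whose level per kb of exon was close to that of Kif5c. It had 603 CPM (KO2), 657 (KO4), 738 (WT6) and 614 (WT8), with a log2 fold change of -0.10 (edgeR, SE 0.12, adjusted p = 0.812), and WT6 again was the high library. Its ratio per length to Kif21a (16.7 ± 2.06 CPM per kb) was 2.90 to 3.63. Kif26a, an atypical kinesin without motor activity, was at 28.9 ± 1.70 CPM per kb, 13.2 to 19.1 times its relative Kif26b, and had a log2 fold change of -0.10 (SE 0.09, adjusted p = 0.773). Of the 11 genes in this group 4 were above 0, and the median was -0.08. Kif2a, which trims microtubules in axon branches, was the gene of the group whose KO libraries were above the WT libraries without overlap: 107 and 105 CPM against 96.2 and 93.8, a log2 fold change of 0.15 (SE 0.08, adjusted p = 0.743). Its exons share 1229 bases (19.2%) with Dimt1 on the opposite strand. Kif7, the ciliary regulator of Hedgehog signalling, had 16.6, 17.0, 20.1 and 14.8 CPM in KO2, KO4, WT6 and WT8, and both WT values lay outside those of KO on either side. Kif19a, which shortens motile cilia, had 40, 30, 36 and 55 reads (log2 fold change -0.53, 95% interval from -1.36 to 0.30).

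Kinesin accessory genes lay on the lower side in KO for 5 of 6, with a median log2 fold change of -0.13, and 0 passed. Klc1 to Klc4 are the light chains through which kinesin-1 binds cargo, Kifap3 links the kinesin-2 pair to cargo, and Kif1bp encodes a kinesin-binding protein that is not itself a motor. Klc1 (117 ± 3.01 CPM per kb) was 2.55 to 3.13 times Klc2 (41.9 ± 4.21), and Klc2 was 1.09 to 1.20 times Klc4 (36.6 ± 4.82). The ranges of Klc2 and Klc4 over the libraries overlapped, while within each library Klc2 was the higher. Divided by the longest coding transcript, the mean ratio of Klc2 to Klc4 was 1.46.

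Klc1, the main light chain, had 470 CPM (KO2), 480 (KO4), 467 (WT6) and 494 (WT8), and the genotypes overlapped (log2 fold change -0.02, SE 0.09, 95% interval from -0.22 to 0.19). Klc2 had 166, 156, 175 and 197 CPM in the same order, with a log2 fold change of -0.21 (edgeR, SE 0.10, adjusted p = 0.743), and Klc4 had 81.1, 79.1, 83.4 and 104 CPM, one of -0.22 (SE 0.12, adjusted p = 0.743). Without WT8 the fold was -0.11 for Klc2 and -0.05 for Klc4. In both, WT8 was the high library and WT6 lay nearer to KO2 than to WT8. Klc3 (ENSMUSG00000040714, chromosome 7, 19394437 to 19404104), with 21, 15, 30 and 26 reads, had the largest fold of all members, -0.78 (SE 0.36, 95% interval from -1.63 to 0.08, adjusted p = 0.743), and 28.1% of its exon length is shared with Ercc2 on the opposite strand. Kifap3 was the accessory gene above 0, at 0.10 (SE 0.08, adjusted p = 0.759), with 129 and 122 CPM in KO against 119 and 115 in WT, the same side as its partner Kif3a.

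Dynein-1 is the dynein of mitosis and retrograde transport. Of its 5 subunit genes 4 were above 0, the median log2 fold change was 0.07 and 0 passed. The heavy chain gene Dync1h1, the motor itself, had 373 CPM (KO2), 412 (KO4), 459 (WT6) and 414 (WT8) (log2 fold change -0.15, SE 0.10, edgeR adjusted p = 0.743). Its KO libraries lay below its WT libraries, though KO4 and WT8 were nearly equal. The intermediate chain gene Dync1i2 (34.8 ± 1.68 CPM per kb) was 3.37 to 5.15 times the neuronal Dync1i1 (8.22 ± 1.48), and 10.1 times when divided by the longest coding transcripts. Dync1i2 had 301 and 299 CPM in KO against 280 and 273 in WT (log2 fold change 0.12, SE 0.08, adjusted p = 0.743), while Dync1i1 overlapped, with 29.7, 29.1, 35.8 and 22.9 CPM in KO2, KO4, WT6 and WT8. The light intermediate chains Dync1li1 (29.5 ± 1.23 CPM per kb) and Dync1li2 (26.6 ± 2.65) stood at 0.07 and 0.14 on the log2 scale.

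Dynein-2, which carries cargo back along cilia, had a median of 0.0038 over its 2 genes. Its heavy chain gene Dync2h1 had 20.7, 22.8, 24.0 and 21.8 CPM in KO2, KO4, WT6 and WT8 and a level of 1.37 ± 0.0857 CPM per kb, far below the 26.5 ± 2.25 of Dync1h1. Dync2li1 was at 10.5 ± 0.707 CPM per kb, and both genes overlapped between genotypes. Of 21 regulators of dynein outside the members, 0 passed, 13 were above 0 and the median was 0.05. The smallest p belonged to Capza1, the actin-capping subunit at the end of dynactin (0.24, SE 0.09), to the cargo adaptor gene Hook1 (0.33, SE 0.16) and to Pafah1b1, the lissencephaly gene whose product LIS1 activates dynein (0.17, SE 0.08), with an edgeR adjusted p of 0.743 for each. All 3 were higher in each KO library than in either WT library. Of the 21 regulators, 6 were of this kind (20.1% of all genes) and 6 had both KO libraries below both WT libraries (19.4%).

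Dynein light chains included Dynlrb1 and Dynll1, the genes with the highest levels per length. Of 9 genes 8 were tested, 2 were above 0 and the median log2 fold change was -0.10. Dynll1 had 544 CPM (KO2), 475 (KO4), 503 (WT6) and 586 (WT8) (log2 fold change -0.09, SE 0.12, edgeR adjusted p = 0.823), and Dynlrb1 had 317, 283, 297 and 352 (-0.11, SE 0.12, adjusted p = 0.794). Both genes were low in KO4 and high in WT8, and their genotypes overlapped. Dynll2, the close relative of Dynll1, had 332, 335, 317 and 337 CPM, with a log2 fold change of 0.03 and a 95% interval from -0.18 to 0.23. In 6 of the 8 genes tested WT8 had the highest value (5153 of 15708 over all genes). Dynlt1a, Dynlt1c and Dynlt1f are among these and are copies with the same coding sequence, described below. Dynll1 and Dynll2 match in 81.1% of their coding bases with no 50-base stretch in common, and their ratio per kb of exon was 0.997 to 1.22, or 1.95 when divided by the longest coding transcripts.

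The other light chain genes include 4 that are copies of each other. Dynlt1a, Dynlt1b, Dynlt1c and Dynlt1f lie near each other on chromosome 17, and each has a coding sequence of 342 bases. These sequences are identical apart from 1 base of Dynlt1b, C21A against the others, counted from the first base of the start codon. The first 60 coding bases of Dynlt1f and Dynlt1b, from the GENCODE M21 transcripts, show the difference in capitals.
Dynlt1f: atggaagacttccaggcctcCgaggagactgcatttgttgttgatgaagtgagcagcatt
Dynlt1b: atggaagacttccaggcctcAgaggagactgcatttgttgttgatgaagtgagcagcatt
A processed pseudogene, Dynlt1-ps1, carries the same 342 bases as Dynlt1f without a mismatch, and the tables list it with 1027 reads (KO2), 1697 (KO4), 1200 (WT6) and 1523 (WT8). A read that lies wholly in coding sequence can therefore be assigned to a single copy only where it covers that base of Dynlt1b, and the sources used here do not say how the counting treated such reads.

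Dynlt1a and Dynlt1b varied more between libraries than the sum of the copies. Dynlt1b had 387 reads (KO2), 930 (KO4), 504 (WT6) and 684 (WT8), and Dynlt1a had 226, 96, 161 and 221. KO4 was thus the highest library for Dynlt1b and the lowest for Dynlt1a. The 4 copies together had 1674, 2036, 1583 and 2115 reads, or 91.3, 111, 92.0 and 132 CPM, so that KO2 and WT6 were nearly equal and KO4 lay between them and WT8. Dynlt1b made up 23.1% (KO2), 45.7% (KO4), 31.8% (WT6) and 32.3% (WT8) of these reads. The log2 fold change was -0.0037 for Dynlt1b (95% interval from -0.91 to 0.90) and -0.40 for Dynlt1a (from -1.32 to 0.53). Values of single copies are uncertain, and the part of shared reads in their variation was not tested. Only the 342 coding bases were compared, while exon lengths run from 771 bases (Dynlt1b) to 4267 (Dynlt1a). Exons of Dynlt1a also share 580 bases (13.6%) with Tmem181a on the opposite strand. Dynlt3, a more distant relative on the X chromosome, had 18.4, 19.3, 18.4 and 16.9 CPM and a log2 fold change of 0.10.

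Dynactin subunits were lower in KO for 4 of 6, with a median log2 fold change of -0.13, and 0 passed. Dctn1 (ENSMUSG00000031865, chromosome 6, 83165920 to 83200117), the large p150 subunit that binds microtubules and dynein, had 356 CPM (KO2), 370 (KO4), 401 (WT6) and 424 (WT8), so that the KO libraries were close together and below both WT libraries. The log2 fold change was -0.18 (SE 0.09, edgeR adjusted p = 0.743). Dctn2, which holds the shoulder of the complex together, had 313, 304, 329 and 374 CPM (-0.19, SE 0.10, adjusted p = 0.743), again without overlap and with WT8 high. Dctn3, the most abundant per kb of exon (Dctn2 is, at 185 against 134 CPM per kb, when divided by the longest coding transcript), overlapped, with 131, 118, 124 and 149 CPM (-0.13, SE 0.11, adjusted p = 0.771). Of the pointed-end subunits, Dctn4 was on the higher side with 76.2 and 76.9 CPM in KO against 70.8 and 62.6 in WT (0.20, SE 0.09, adjusted p = 0.743), Dctn5 stood at 0.06 and Dctn6 at -0.14. Subunits of 1 complex thus lay on both sides of 0.

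Base composition moved with these folds. Across the 66 tested members, Pearson's r between the log2 fold change and the GC content of the longest transcript was -0.58, and across 15687 tested genes it was -0.32. Both are descriptions across genes that share the same 4 libraries. Median GC content was 48.1% for mitotic kinesins, 52.5% for transport kinesins and 57.5% for accessory genes, whose median folds were 0.13, -0.09 and -0.13. The classes did not all follow this order: dynactin had a median GC content of 48.1% with a median fold of -0.13, light chains 47.9% with -0.10 and dynein-2 45.0% with 0.0038. Within the 15 transport kinesins r was -0.60 and within the 13 mitotic kinesins it was -0.37. Length moved with the libraries too. The r of log2 exon length with a member's level relative to its mean was -0.35 in WT8, 0.27 in WT6, 0.16 in KO4 and 0.076 in KO2 (over all genes -0.25, 0.13, 0.20 and -0.036). The lowest value came from WT8 in 17 of the 33 members longer than the member median of 5059 bases and in 9 of the other 33. Over all genes tested it came from WT8 in 2937 of 6125 above that length and in 2396 of 9562 others. The shares of the members were thus near the background. Median exon length was 5514 bases for mitotic and 7276 for transport kinesins. The part of GC content and length in the class differences was not tested.

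**Figure D5:**
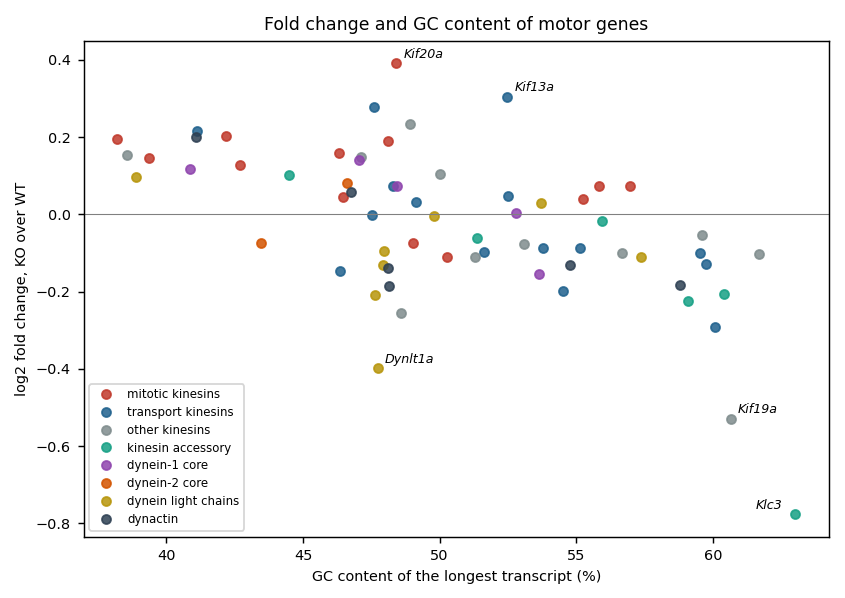
Log2 fold change of KO over WT against the GC content of the longest transcript for the 66 tested motor genes, coloured by role. Members with GC content under 45% lie mostly above 0 and members over 55% mostly below it, with Klc3 and Kif19a at the lower right.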

How the data were processed

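Brain RNA of 4 samples was extracted with Trizol and sequenced on an Illumina instrument, per the labels. The authors deposited 2 tables (KO2 with WT6, KO4 with WT8) holding a whole-number read count per gene that was not normalized, a CPM, a ratio of KO over WT with its log2 value, and p-values, per the file headers; the CPM and the ratio were not used for tests. HTSeq 0.6.0, TopHat2 2.0.12 and Bowtie2 2.2.3 are named, with the build mm9, per the submitters' processing notes. Positions equal those of GENCODE M21 on GRCm38 for 58 of 67 members and 91.2% of genes, so GRCm38 is used here. Strand and multiple hits in the counting are not given in the sources used here.

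Counts of 19150 genes were joined by gene identifier. Genotypes were compared with edgeR 4.0.16 in R 4.3.3 (quasi-likelihood F-test, TMM, filterByExpr, Benjamini-Hochberg adjustment over 15708 genes, threshold 0.05), with genotype as the only term and groups from the labels. CPM is scaled by the TMM factor. Levels per kb use the union of a gene's GENCODE M21 exons. Pair ratios use a prior count of 2. DESeq2 1.42.0, limma-voom (limma 3.58.1), other scalings and filters, the deposited pair as a term and fits without each library were alternatives. The fit was tested on simulated data with 200 genes changed in each of 3 rounds. A total count of 16470090 to 18136745 per library gives precision that the intervals show.

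Members, role classes and lists were chosen with earlier results of these data known, so no list was tested. Any member could be named; full statistics go to the 5 higher and 5 lower members with the smallest p and the 3 most abundant per kb of each class, and of each list of other pathway genes the 3 with the smallest p are named. Kif28, listed in 1 table with 2 reads in each library, was left out, and Kif2b and Kif12 were not analysed here.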

Additional observations from a re-analysis of the deposited data

How the results depend on the processing

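No motor gene passed in any alternative, and the smallest adjusted p of a member was 0.314 (edgeR without WT6). Genes called higher in KO were 0 at the main setting, 2 with DESeq2, and 0 to 67 without 1 library each, the 67 without WT8. Genes called lower were 1 at the main setting, 2 with DESeq2, 2 with the deposited pair as a term, and 0 (without WT6) to 37 (without WT8) without 1 library each. The cause was not tested. A fit without a library takes the spread of the lone library from the other genotype. The median log2 fold change of the members, -0.01, ran from -0.0251 to 0.0154 over the fits without 1 library, that of mitotic kinesins from 0.0794 to 0.18, that of transport kinesins from -0.1102 to 0.0622, and the difference of both classes from 0.0244 to 0.2785. No other setting moved these medians by more than the spread between libraries, nor did other class memberships (0.2146 with light chains, Kifap3, Kif21a and Kif21b in the transport class, 0.2328 without Kif22 and Kif15 in the mitotic one). For the 10 members with the smallest p, all 110 values under alternatives kept their direction and their side of the threshold, but leaving out 1 library moved 7 of these folds by over 1.5 times. Without KO4 the fold was 0.10 for Kif11 and 0.11 for Kif5b. Without WT8 it was 0.15 for Kif3a, 0.12 for Dctn4, -0.12 for Kif1c, -0.11 for Klc2 and -0.05 for Klc4. Without WT6 that of Klc4 was -0.38 and that of Kif3a 0.42. Members at 10 CPM per kb or more were 36, and 40 with the longest coding transcript as length, an alternative chosen after seeing the data. No paired analysis was possible because the labels give the genotypes no shared replicate numbers; the deposited pair was a term in their place. Depth limits the genes with few reads: Klc3, Kif17 and Kif19a have intervals that hold both a halving and no change.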
